A study of Mus musculus with 15 samples.

Results

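The messenger RNAs of the adult red cell were followed in 15 mouse heart libraries. They were the 4 adult globin genes Hba-a1, Hba-a2, Hbb-bs and Hbb-bt, and Alas2, the erythroid enzyme that starts heme synthesis. These 5 genes of the 17447 in the count table were chosen by name as a read-out of red-cell RNA left in the tissue, with their counts in these libraries already known. Their levels are therefore given as a description, without a test. All 5 were among the 13021 genes that passed the filter on low counts.

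The study compared hearts of male C57BL/6J mice, all taken 18 weeks after surgery, with 3 libraries in each of 5 groups. WTSHAM were wild-type mice after a sham operation, and their labels name no vector. WTCKD were wild-type mice with chronic kidney disease (CKD) after removal of most of the kidney tissue, given vector. WTCKD+RNLS had the same genotype and surgery and received AAV9-cTnT-RNLS, a virus that carries renalase (RNLS) behind the cardiac troponin T promoter, which is active in cardiomyocytes. KOCKD were rnls-/- mice with CKD given vector, and KOCKD+RNLS were rnls-/- mice with CKD given the renalase virus. The rnls-/- line was made in the C57BL/6J strain with TALEN nucleases, and no rnls-/- sham group was analysed here. CKD and vector differ together between WTCKD and WTSHAM, so they cannot be told apart in that comparison. Nothing in the sources used here says whether blood was flushed from the hearts before RNA extraction.

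Hemoglobin is a tetramer of a pair of alpha and a pair of beta globin chains, each holding a heme group that binds oxygen. Red-cell precursors make it in the bone marrow, and a reticulocyte that enters the blood has lost its nucleus but still holds globin messenger RNA for a short time. Alas2 is the X-linked, erythroid form of 5-aminolevulinate synthase, while other tissues make heme with Alas1. The heart stores oxygen on myoglobin (Mb), a globin of muscle. Impaired kidneys make less erythropoietin, the hormone that drives red-cell production, and kidney disease is known for anemia. Blood values of these mice were not analysed here.

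The alpha genes lie on chromosome 11, the beta genes on chromosome 7 and Alas2 on X. In the mm9 annotation Hba-a1 (ENSMUSG00000069919) spans 32183511 to 32184465 and Hba-a2 (ENSMUSG00000069917) spans 32196489 to 32197301, both on the plus strand. Alas2 (ENSMUSG00000025270) spans 146981918 to 147005181 on the plus strand. The names Hbb-bs and Hbb-bt do not occur in that annotation. The RefSeq sequence just upstream of each was found once in mm9. That of Hbb-bs lies at 110976443 to 110976562, inside the annotated span of Hbb-b1 (110975048 to 110976610, minus strand). That of Hbb-bt lies at 110962438 to 110962557, across the start of Hbb-b2 (110961038 to 110962510, minus strand). The study's text and the submitters' processing notes name different genome builds, so these positions serve only as location.

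The 120 bases before the start site of each of the 5 genes are shown, from RefSeq on GRCm38.p6. Whether these bases bear on the levels in these libraries was not tested. Capitals mark 4 motifs on either strand: the CACC box (letters CACCC), the CCAAT box, the TATA-like run (letters ATATAA) and the GATA motif. The last was searched as AGATAA, also as AGATAG, then as TGATAA and as TGATAG, and overlapping matches run together in the capitals.
Hba-a1, chr11:32283552-32283671, plus strand: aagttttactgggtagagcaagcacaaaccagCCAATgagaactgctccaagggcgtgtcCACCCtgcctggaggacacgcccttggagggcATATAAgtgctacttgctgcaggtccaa
Hba-a2, chr11:32296372-32296491, plus strand: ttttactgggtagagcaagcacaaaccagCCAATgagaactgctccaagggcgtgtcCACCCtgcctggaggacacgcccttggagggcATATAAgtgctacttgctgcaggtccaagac
Hbb-bs, chr7:103827929-103828048, minus strand: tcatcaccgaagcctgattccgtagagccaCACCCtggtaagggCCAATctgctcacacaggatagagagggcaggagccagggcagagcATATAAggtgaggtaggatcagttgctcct
Hbb-bt, chr7:103813924-103814043, minus strand: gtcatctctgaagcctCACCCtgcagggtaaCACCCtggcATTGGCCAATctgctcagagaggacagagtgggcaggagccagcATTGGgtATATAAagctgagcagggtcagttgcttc
Alas2, chrX:150547297-150547416, plus strand: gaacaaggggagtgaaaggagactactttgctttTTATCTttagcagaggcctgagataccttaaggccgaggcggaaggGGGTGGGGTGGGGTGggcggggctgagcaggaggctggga

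All 4 globin windows held the CACC box, the CCAAT box and the TATA-like run together, as did 94 of the 32851 RefSeq promoter windows of this length (0.286%). Alas2 held the CACC box and the GATA motif, both on the opposite strand, and lacked the other letters in this window. Alone, the CACC box was in 31.7% of all windows, the CCAAT box in 21.3%, the GATA motif in 12.8% and the TATA-like run in 4.47%. Shifted by 3 bases, the alpha windows were identical over all 117 shared bases. The beta windows matched at 88 of 119 bases. These matches describe letters and not sites that a factor binds.

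The 2 copies within each pair are also nearly the same in their coding sequence, which limits how reads could be assigned to them. In the mm9 transcripts, Hba-a1 and Hba-a2 differ at 1 of 429 coding bases, and Hbb-b1 and Hbb-b2 at 1 of 444. The stretches around these bases are shown, with the differing base in capitals.
Hba-a1, coding bases 351 to 410: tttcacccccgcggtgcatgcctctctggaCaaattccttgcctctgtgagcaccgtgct
Hba-a2, coding bases 351 to 410: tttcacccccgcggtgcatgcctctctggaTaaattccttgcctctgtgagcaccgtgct
Hbb-b1, coding bases 385 to 444: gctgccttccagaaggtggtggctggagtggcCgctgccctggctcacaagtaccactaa
Hbb-b2, coding bases 385 to 444: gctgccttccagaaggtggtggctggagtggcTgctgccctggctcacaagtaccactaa
Levels within a pair are therefore uncertain, while the sums of the alpha and of the beta genes do not depend on how reads were split inside the pair. Reads dropped because they fit both copies would lower these sums too. Whether any were dropped is not given in the sources used here.

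The libraries held 10480788 to 13424078 counts. The tissue label was checked against 20 lists of marker genes. Summed cardiomyocyte markers lay between 81590 and 111200 CPM (counts scaled to a common library total), with Myh6 the highest, and summed lung markers reached at most 1.25 CPM. Atrial markers (Sln, Myl7, Myl4, Bmp10) ranged from 1.71 to 1712 CPM, highest in KOCKD replicate 3. Renalase itself was not analysed here, so the knockout and the virus were not checked in these libraries.

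Hbb-bs, the beta globin gene with more assigned counts, was read 293 to 4664 times in a library. In CPM scaled with TMM factors, the WTSHAM libraries had 389, 284 and 46.4 (replicates 1, 2 and 3), and the WTCKD libraries had 24.8, 65.1 and 27.9. The WTCKD+RNLS libraries had 337.5, 297 and 138, the KOCKD libraries 32.6, 80.6 and 218.5, and the KOCKD+RNLS libraries 46.9, 114 and 185. The highest library, WTSHAM replicate 1, was 15.7-fold above the lowest, WTCKD replicate 1. WTSHAM replicate 3 lay below every WTCKD+RNLS library and below WTCKD replicate 2. Among the 4 comparisons of groups, the Hbb-bs levels of WTCKD and WTCKD+RNLS did not overlap, and those of the others did.

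Hbb-bt, the beta gene with fewer assigned counts, was read 25 to 555 times in a library. Its CPM were 37.2, 41.7 and 2.65 in WTSHAM, 2.20, 5.97 and 2.13 in WTCKD, and 37.3, 25.2 and 12.8 in WTCKD+RNLS. They were 3.15, 7.83 and 23.8 in KOCKD and 3.66, 9.10 and 16.1 in KOCKD+RNLS. The range over libraries was 19.6-fold, and WTSHAM replicate 3 sat at the level of the WTCKD libraries.

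Hba-a1 had 126.5, 81.4 and 12.7 CPM in WTSHAM, 7.95, 21.4 and 10.04 in WTCKD, and 94.7, 103 and 41.8 in WTCKD+RNLS. It had 10.9, 27.0 and 88.7 CPM in KOCKD and 13.8, 35.8 and 61.2 in KOCKD+RNLS. WTCKD replicate 1 was again the lowest library, and WTSHAM replicate 1 the highest.

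Hba-a2 had 46.7, 38.2 and 3.97 CPM in WTSHAM, 2.45, 10.4 and 4.51 in WTCKD, and 36.1, 36.5 and 17.5 in WTCKD+RNLS. In KOCKD it had 3.06, 8.66 and 30.4 CPM and in KOCKD+RNLS 6.74, 12.2 and 19.0. KOCKD replicate 3 stood above the other KOCKD libraries for every one of the 5 genes.

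Alas2, with 8 to 305 counts a library, had the widest range. Its CPM were 25.4, 17.3 and 2.87 in WTSHAM, 0.676, 3.76 and 1.79 in WTCKD, and 21.6, 14.1 and 7.20 in WTCKD+RNLS. They were 1.40, 5.59 and 13.4 in KOCKD and 2.52, 8.19 and 11.1 in KOCKD+RNLS. The highest library was 37.6-fold above the lowest.

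**Figure D1:**
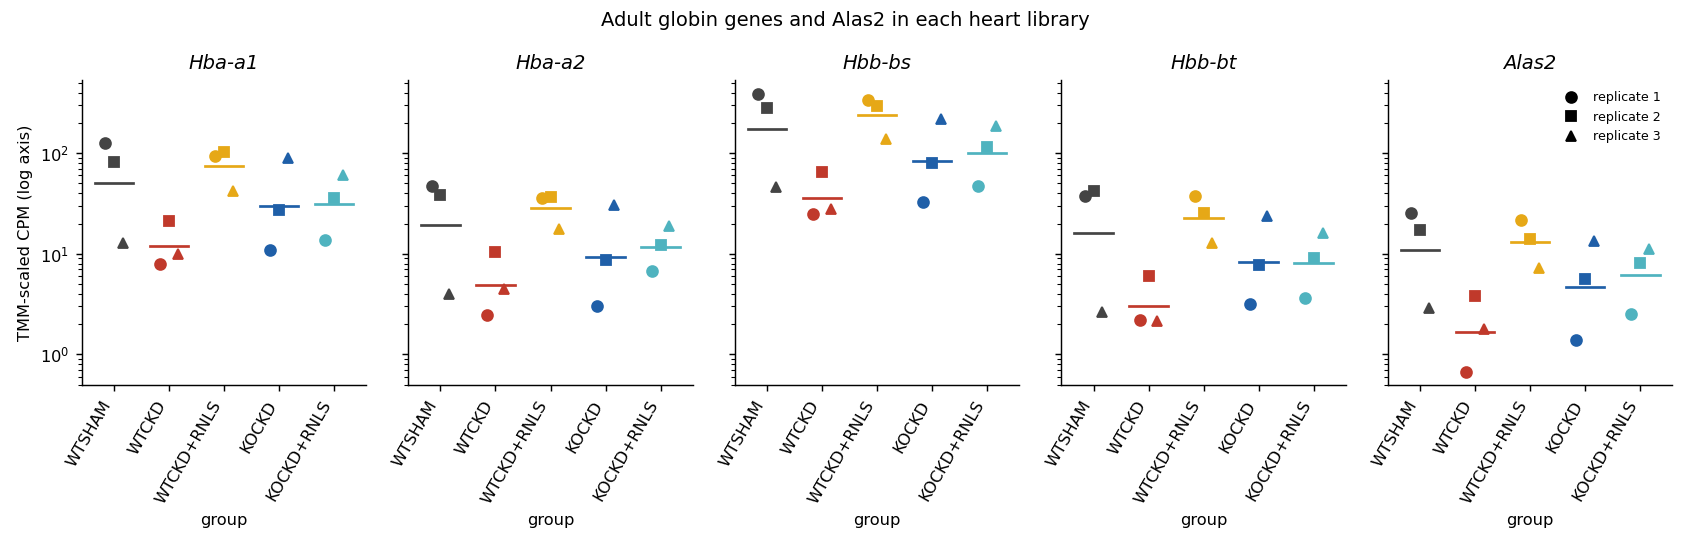
TMM-scaled CPM (log axis) of Hba-a1, Hba-a2, Hbb-bs, Hbb-bt and Alas2 in each library, by group; symbols mark the replicate number and lines the geometric mean of 3 libraries. In each panel the WTCKD+RNLS libraries lie above the WTCKD libraries, and WTSHAM replicate 3 lies far below the other WTSHAM libraries.

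Per length, the deposited FPKM place these genes among those of the heart. Hbb-bs had a median of 179.5 FPKM and ranked between 98 and 1494 among all genes of a library, and Alas2 a median of 3.47 FPKM. Mb had a median of 12980 FPKM and ranked 1 or 2 in every library. Summed globin FPKM were below Mb by 13.2-fold in WTSHAM replicate 1 and by 215-fold in WTCKD replicate 1. Mb itself varied only from 10570 to 16280 FPKM, a far narrower range than that of the red-cell globins.

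Within WTSHAM, the summed globins ranged 9.13-fold, and within KOCKD 7.27-fold. The standard deviation of log2 CPM within groups was 1.15 for Hbb-bs, 1.21 for Hba-a1, 1.25 for Hba-a2, 1.30 for Hbb-bt and 1.19 for Alas2. The median over all genes tested was 0.17, and over those with a mean above 10 CPM it was 0.14. Of the 13021 genes, 29 had a larger spread than Hbb-bt and 41 a larger one than Hbb-bs. In a bulk library, fewer reticulocytes and less globin RNA per cell cannot be told apart.

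The groups can be ordered by their summed adult globin level. The median of 3 libraries was 462 CPM in WTCKD+RNLS, 445 in WTSHAM, 171 in KOCKD+RNLS, 124 in KOCKD and 44.6 in WTCKD. Of the 10 pairs of groups, 9 overlapped, so the order is a description and does not rank neighbours. The pair that did not overlap was WTCKD, at 37.4 to 103 CPM, and WTCKD+RNLS, at 210.3 to 506 CPM. They are the groups with the lowest and the highest median. In this pair 21.2% of all genes tested did not overlap. Shares over all genes were taken for only 4 of the pairs and lay between 19.3% and 40.6%.

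Between WTCKD and WTSHAM, which asks how CKD hearts differ from sham hearts, mean Hbb-bs was 39.3 ± 22.4 CPM in WTCKD and 240 ± 175 in WTSHAM (SD, n = 3 each). Mean log2 CPM of the 5 genes was lower in WTCKD, with differences from -1.98 (Hba-a2) to -2.71 (Alas2). For the summed globins the difference was -2.23 with a standard error of 1.10. All 5 genes overlapped between the groups, where 22.5% of all genes tested did not overlap. The size depended on single libraries, most on WTSHAM replicate 3: without it the summed difference was -3.22. Without WTSHAM replicate 1 it was -1.62, without WTSHAM replicate 2 -1.84 and without WTCKD replicate 2 -2.67.

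Between WTCKD+RNLS and WTCKD, which asks what renalase given to cardiomyocytes changes in the CKD heart, each of the 5 genes was higher in every WTCKD+RNLS library than in every WTCKD library. The same held for 10.4% of the genes tested, and 21.2% did not overlap in either direction. Mean Hbb-bs was 258 ± 105 CPM against 39.3 ± 22.4. Differences of mean log2 CPM were 2.63 for Hba-a1, 2.55 for Hba-a2, 2.76 for Hbb-bs, 2.92 for Hbb-bt and 2.97 for Alas2, with standard errors of 0.59 to 0.85. The lowest WTCKD+RNLS library was above the highest WTCKD library by 1.68-fold for Hba-a2 and by 2.14-fold for Hbb-bt. Since the counts chose these genes, nothing is read from this count.

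Endothelial markers moved the other way in this comparison. Their summed level was 898 to 966 CPM in WTCKD+RNLS and 1226 to 1415 CPM in WTCKD, and 4 of 6 were called lower by edgeR's quasi-likelihood test, which called 4.47% of all genes in either direction. They were Pecam1 (-0.55 on the log2 scale), Cdh5 (-0.50), Kdr (-0.59) and Emcn (-0.61), genes of the vessel lining. Among 5 fibroblast markers, the collagen gene Col1a1 fell (-0.94, edgeR's adjusted p = 0.0488). Summed cardiomyocyte markers were 102300 to 111200 CPM in WTCKD+RNLS and 83470 to 96330 CPM in WTCKD, with 7 of 7 log2 fold changes positive, 0 called by edgeR and 3 with an unadjusted p under 0.05. Summed atrial markers were 891, 1159 and 4.08 CPM in WTCKD and 17.8, 3.99 and 243 CPM in WTCKD+RNLS (replicates 1, 2 and 3). Sln, Myl4 and Myl7 had log2 fold changes of -3.48, -2.89 and -2.87 and were not called (edgeR's adjusted p of 0.224 or more). The part of these shifts in the globin difference was not tested.

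Between KOCKD+RNLS and KOCKD, the same virus in rnls-/- mice, mean Hbb-bs was 115 ± 69.2 CPM against 110.5 ± 96.5. Differences of mean log2 CPM lay between -0.04 (Hbb-bt) and 0.37 (Alas2), with standard errors of 0.98 to 1.15. All 5 genes overlapped, where 40.6% of the genes tested did not. The summed difference of 0.21 (standard error 1.01) became 0.94 without KOCKD replicate 3, the library with the highest atrial markers. The part of atrial tissue in its globin level was not tested. In this comparison the atrial genes Sln, Myl7 and Myl4 were called lower by edgeR, where 16.1% of all genes were called in either direction. Also called lower were only C1qa of 8 macrophage markers, only Pecam1 of 6 endothelial markers and only Col1a1 of 5 fibroblast markers. Of those not called, the macrophage genes Lyve1 (0.59) and Timd4 (0.19) had positive log2 fold changes. So did the fibroblast genes Pdgfra (0.13) and Lum (0.02), while the other members of these lists had negative ones. Of 7 cardiomyocyte markers, Myh6 and Ryr2 were called higher (0.52 and 0.34 on the log2 scale). The other 5 were not called, with values from -0.21 (Myl2) to -0.05 (Tnnt2). Whether the globin difference itself differed between genotypes was not tested, since the counts chose these genes.

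Between KOCKD and WTCKD, the comparison of genotypes under CKD, mean Hbb-bs was 110.5 ± 96.5 CPM against 39.3 ± 22.4. The summed globins differed by 1.23 on the log2 scale (standard error 0.94), and by 0.50 without KOCKD replicate 3. All 5 genes overlapped, where 19.3% of the genes tested did not. WTCKD libraries also enter both wild-type comparisons above, so those differences are not independent of this one.

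**Figure D2:**
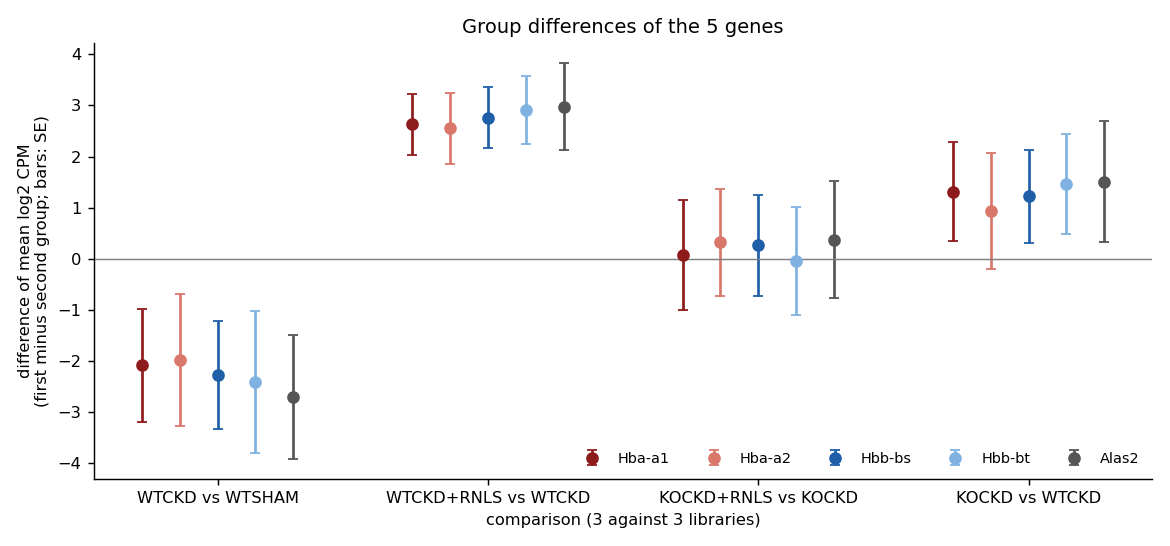
Difference of mean log2 CPM for each of the 5 genes in 4 comparisons (first minus second group, 3 against 3 libraries), with standard errors as bars. The 5 genes take nearly the same value within a comparison: about -2.0 to -2.7 for WTCKD vs WTSHAM, 2.5 to 3.0 for WTCKD+RNLS vs WTCKD, and near 0 for KOCKD+RNLS vs KOCKD.

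The 5 genes kept almost the same order over libraries. Over the 10 pairs of genes, Pearson's r of log2 CPM ranged from 0.958 (Hbb-bt and Alas2) to 0.994 (Hba-a1 and Hbb-bs) across 15 libraries, and Spearman's rho from 0.946 to 0.993. With each value taken relative to its group mean, r ranged from 0.936 to 0.997. The genes were chosen together and share libraries and depth, so these are descriptions. They show that the shared rise and fall ran between replicates as well as between groups.

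The proportions among the 5 genes changed far less than their level. Alpha globin made up 25.3% of the globin counts in WTSHAM replicate 3 (95% Wilson interval 22.6 to 28.3) and 33.0% in KOCKD replicate 3 (31.6 to 34.4), with a median of 28.5%. While summed globins ranged 16.04-fold, this share ranged 1.30-fold. Alpha chains pair with beta chains in hemoglobin, and both kinds of gene followed each other in every library.

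Hba-a2 held 21.9% of the alpha counts in KOCKD replicate 1 (16.2 to 28.9) and 32.8% in KOCKD+RNLS replicate 1 (27.3 to 38.8). Hbb-bt held 5.41% of the beta counts in WTSHAM replicate 3 (3.93 to 7.39) and 12.8% in WTSHAM replicate 2 (11.9 to 13.9), around a median of 8.40%. These extremes come from the same group and their intervals do not meet. Intervals cover counting error only, and reads of near-identical copies may have been split or dropped.

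Alas2 made up 37.4 of every 1000 counts of the 5 genes in the median library. It was lowest in WTCKD replicate 1, at 17.8 per 1000 (interval 9.04 to 34.7), where it rests on 8 counts. It was highest in KOCKD+RNLS replicate 2, at 45.7 (37.6 to 55.3). Apart from WTCKD replicate 1, KOCKD replicate 1 and WTCKD+RNLS replicate 2, all libraries lay between 33.1 and 45.7.

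**Figure D3:**
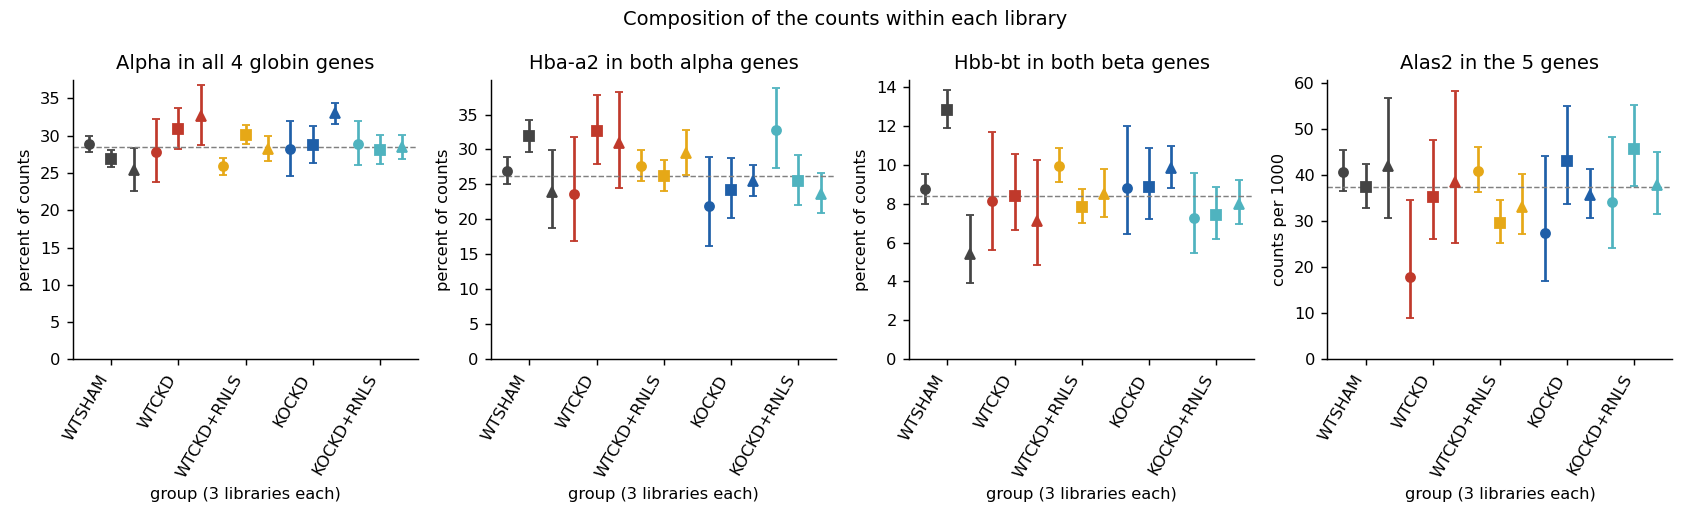
Shares of counts in each library with 95% Wilson intervals: alpha genes among all 4 globin genes, Hba-a2 among both alpha genes, Hbb-bt among both beta genes (percent), and Alas2 per 1000 counts of the 5 genes; dashed lines mark the median of 15 libraries. Alpha shares stay between 25.3% and 33.0%, and the Hbb-bt share is lowest and highest within WTSHAM.

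The 14 lists of blood and heme genes held 145 other genes, of which 136 were in the table and 89 passed the filter. Of these 89, edgeR's quasi-likelihood test called 1 in WTCKD against WTSHAM (2.3% of all genes were called), 0 in WTCKD+RNLS against WTCKD (4.47%), 10 in KOCKD+RNLS against KOCKD (16.1%) and 0 in KOCKD against WTCKD (0.0%). Without adjustment, 16, 16, 27 and 5 had a p under 0.05, beside 17.6%, 20.2%, 31.6% and 10.1% of all genes. DESeq2 called 1, 1, 12 and 0. Their median log2 fold changes were 0.02, 0.03, -0.06 and 0.05, with medians over all genes between -0.01 and 0.01. The RNLS effect differed between genotypes for 0 of the 89 after adjustment (0.0% of all genes), for 13 without it (17.6%) and for 1 by DESeq2.

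Genes of the late reticulocyte came next. Bpgm makes 2,3-bisphosphoglycerate, which lowers the oxygen affinity of hemoglobin. Its CPM were 31.4, 27.1 and 21.6 in WTSHAM, 23.4, 21.8 and 19.99 in WTCKD, and 30.0, 32.9 and 22.3 in WTCKD+RNLS. They were 25.3, 23.8 and 26.0 in KOCKD and 21.5, 24.6 and 26.9 in KOCKD+RNLS. WTSHAM replicate 3 was again the lowest of its group and KOCKD replicate 3 the highest. Other libraries did not keep the globin order. WTCKD replicate 1, the lowest in Hbb-bs, had the highest Bpgm of its group, and KOCKD replicate 1 exceeded replicate 2. WTCKD+RNLS overlapped WTCKD, at 0.38 ± 0.15 on the log2 scale (standard error) with edgeR's adjusted p = 0.164.

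Other genes were ranked by the correlation of their log2 CPM with the mean log2 CPM of the 5 genes over the 15 libraries. Among 12354 genes the median had r = 0.02, and 90% of genes lay between -0.46 and 0.47. Among the 10 genes with the highest r were Prmt1, an arginine methyltransferase, at 0.895 (0.951 relative to group means), and Nop56, a part of the small nucleolar RNA machinery, at 0.814. They also held Trp53rkb (0.804), G0s2 (0.796), Ier5 (0.793), Bpgm (0.786), Dusp7 (0.781), Rdh5 (0.774) and Coq10b (0.761). Prmt1 spanned only 1.27-fold over libraries and Bpgm 1.64-fold, against 15.7-fold for Hbb-bs. The ranking takes the best of many genes in libraries that share depth and tissue.

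Tent5c, a poly(A) polymerase, had r = 0.736 and ranged from 0.487 to 3.92 CPM. Isg20, an RNA exonuclease, was the gene called in WTCKD against WTSHAM. Its mean was 2.45 ± 0.601 CPM in WTCKD and 5.84 ± 2.14 in WTSHAM (log2 fold change -1.25 ± 0.31, standard error, with edgeR's adjusted p = 0.0455). That call was lost without WTSHAM replicate 1 or any WTCKD library. The most abundant genes of the list, Bnip3l, Gypc and Ube2o, had r of -0.122, 0.152 and 0.201, and the heart expresses them at 66.1, 51.3 and 47.7 CPM on average.

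Of 6 red-cell protein genes tested, r with the 5 genes ranged from -0.208 (Rhd) to 0.787 (Slc4a1). Slc4a1, band 3, the anion exchanger of the red cell, was read 15, 6 and 0 times in WTSHAM, 1, 0 and 1 in WTCKD, and 21, 12 and 3 in WTCKD+RNLS. It was read 0, 1 and 2 times in KOCKD and 2, 3 and 3 times in KOCKD+RNLS. WTCKD+RNLS exceeded WTCKD by 3.91 ± 1.18 on the log2 scale (standard error), with edgeR's adjusted p = 0.0721. It was highest in libraries with high globin, at counts too low to rank most libraries.

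The erythrocyte cytoskeleton genes Ank1 and Sptb were far more abundant, at 494 and 242 CPM, and are known to be used by heart and skeletal muscle too. Their r with the 5 genes was -0.169 and -0.095. In KOCKD+RNLS against KOCKD, Sptb rose from 201 ± 14.8 to 287 ± 23.5 CPM (log2 fold change 0.52, adjusted p = 0.00392 from edgeR). It was 1 of 2 called among the 6, beside 16.1% of all genes, and globin levels overlapped in that comparison.

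Of the 7 other globin genes of the list, Hbq1a and Hbq1b were in the table, with at most 2 counts in a library. The embryonic globin genes were not analysed here. Gata1, the master regulator of red-cell precursors, had at most 1 count and was at 0 in 13 libraries, which in each library allows up to 0.224 to 0.286 CPM. Klf1 had 4 to 9 counts summed over a group, Hemgn 0 in all libraries, and Ahsp, which binds free alpha globin, 13 in all. In WTSHAM replicate 1, where Hbb-bs reached 389 CPM, Gata1 had 1 count, Klf1 0 and Hemgn 0. Nfe2, another regulator of the list, had its highest level in that library, at 7 counts or 0.584 CPM. The stage of the cells that gave the globin RNA was not tested. Zfpm1, Lmo2 and Tal1, which other heart cells also express, were at 33.1, 27.4 and 6.40 CPM.

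**Figure D4:**
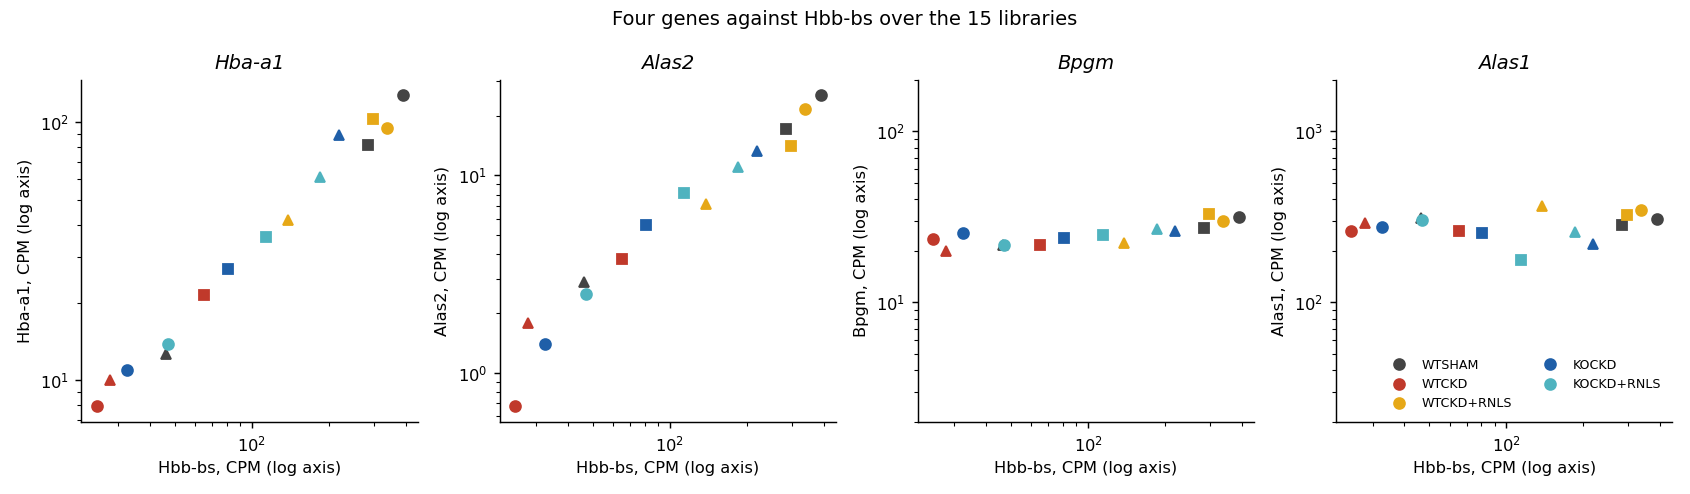
Hba-a1, Alas2, Bpgm and Alas1 against Hbb-bs in each library (CPM, log axes), coloured by group with symbols for replicates. Hba-a1 and Alas2 climb with Hbb-bs over its 15.7-fold range, whereas Bpgm stays between 19.99 and 32.9 CPM and Alas1 between 178 and 368 CPM.

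The other heme synthesis genes varied less than Alas2. Alas1, the form of the enzyme used outside red cells, ranged from 178 to 368 CPM with r = 0.109. In WTCKD+RNLS it was 323 to 368 CPM and in WTCKD 260.0 to 291 CPM, without overlap (log2 fold change 0.35, adjusted p = 0.169 from edgeR). Of all genes tested, 21.2% did not overlap in that comparison. Fech, which inserts iron into the ring, ranged from 173 to 218 CPM with r = 0.061. The 13 genes had r between -0.523 (Cpox) and 0.509 (Ppox), with a median of 0.109. In WTCKD+RNLS against WTCKD 12 of 13 had positive log2 fold changes with a median of 0.11, and edgeR called 0. An unadjusted p under 0.05 from edgeR was found for 2, beside 20.2% of all genes. They were Alas1, which rose, and Cpox, the gene that fell (-0.35). In KOCKD+RNLS against KOCKD 4 of 13 were called, beside 16.1% of all genes. There, Urod (log2 fold change -0.29) and Cpox (-0.42) fell and Slc25a37, the mitochondrial iron carrier, rose (0.51). Their adjusted p from edgeR were 0.048, 0.0313 and 0.0249. Under other processing settings the result for Urod was weaker in 10 and the same in 2. For Cpox it was weaker in 5 and the same in 7, and for Slc25a37 weaker in 3 and the same in 9.

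Of 14 heme breakdown and traffic genes tested, 1 was called in KOCKD+RNLS against KOCKD, a smaller share than the 16.1% of all genes. It was Pgrmc1, a heme-binding membrane protein, which fell (-0.31, adjusted p = 0.0401 from edgeR). Under other processing settings the result for Pgrmc1 was weaker in 7 and the same in 5. Lrp1, Slc48a1 and Hmox2 were the most abundant, at 222, 93.3 and 77.8 CPM. Of 6 antioxidant enzymes of the red cell, 1 was called in the same comparison: Prdx2 fell (-0.35, adjusted p = 0.0149 from edgeR). The result for Prdx2 was weaker in 5 of the other settings and the same in 7. Prdx2, Cat and Sod1 lay at 351, 315 and 249 CPM. The median r of this list was 0.03.

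Hypoxia response genes were included because anemia can lower oxygen supply. Of 13 tested, 2 were called in KOCKD+RNLS against KOCKD, a share close to the 16.1% of all genes. Egln3, an oxygen-sensing prolyl hydroxylase, fell from 148 ± 64.3 to 62.5 ± 4.51 CPM (-1.25, adjusted p = 0.00326 from edgeR), and Hk2, hexokinase 2, rose (0.33, adjusted p = 0.0126 from edgeR). Egln1, Hk2 and Vegfa, the highest of the list, were at 562, 505.5 and 274 CPM. The median r of the list with the 5 genes was -0.07.

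White cells and platelets share the blood with red cells, and their markers were set beside the globins. Neutrophil, B cell, T cell and blood monocyte lists had median r of 0.24, 0.24, 0.16 and 0.21. Summed platelet markers were 40.7 CPM in WTSHAM replicate 1 and 8.06 to 14.7 CPM in the other libraries. Ppbp, a platelet chemokine, had 108 counts in WTSHAM replicate 1, against 4 and 0 in the other WTSHAM libraries. Lcn2, a neutrophil granule protein, had 271 counts in WTSHAM replicate 1, against 28 and 33 in the others. In WTCKD+RNLS it had 63 to 117 counts and in WTCKD 9 to 32, which was not called (edgeR's adjusted p = 0.133). Of the 8 neutrophil genes tested in that comparison, 4 had positive log2 fold changes and the median was 0.00, with Mmp9 at -1.36 and S100a9 at -1.12. WTSHAM replicate 1 also had the highest summed globins, but WTCKD+RNLS replicate 1, next in globin, had platelet markers of 9.60 CPM.

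**Figure D5:**
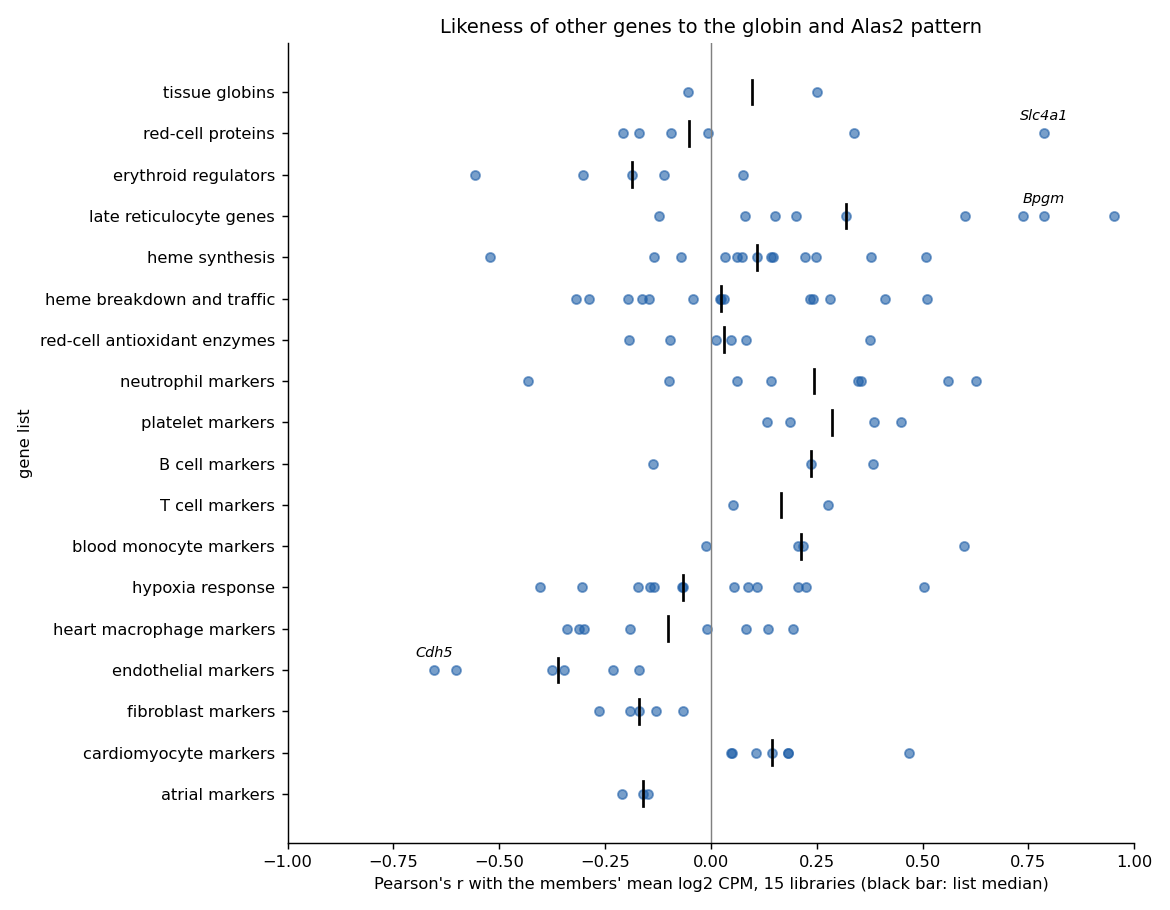
Pearson's r, over 15 libraries, between each tested list gene and the mean log2 CPM of the 5 genes; each row is a list, each point a gene and the black bar the list median. Bpgm (0.786) and Slc4a1 (0.787) lie towards the right end, while heme synthesis genes spread on both sides of 0.

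Hbb-bs was also set beside 8 lists over the 15 libraries, as the correlation of its log2 CPM with log2 of each list's summed CPM. These values are descriptions without a test, since Hbb-bs and the lists were chosen with the data known and the points share libraries and depth. Late reticulocyte genes had r = 0.66 and Spearman's rho = 0.668, and their summed level ranged only from 205 to 254.5 CPM. Relative to group means r was 0.665, and without WTCKD replicates 1 and 3, the libraries farthest from the median of Hbb-bs, it was 0.657. With the mean of log2(CPM + 0.5) in place of the sum, which weights each gene alike, r was 0.905 for late reticulocyte genes and turned from -0.242 to 0.577 for red-cell proteins, whose sum is mostly Ank1 and Sptb.

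Endothelial markers had r = -0.586 and rho = -0.532. Relative to group means r was -0.327, and without the 2 farthest libraries -0.411. Neutrophil markers had r = 0.433 and rho = 0.489, and platelet markers r = 0.365 and rho = 0.279. B cell, T cell and cardiomyocyte markers had r of 0.125, 0.299 and 0.272. Relative to group means, r was 0.509 for neutrophil, 0.386 for platelet, 0.479 for B cell, 0.612 for T cell and -0.107 for cardiomyocyte markers. Without the 2 farthest libraries the values were 0.656, 0.372, 0.024, 0.204 and 0.337, in the same order. In some settings white-cell lists thus came near the r of late reticulocyte genes.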

How the data were processed

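Messenger RNA of 15 hearts was measured in 5 groups of 3. Per the study's methods, stranded mRNA libraries were sequenced with paired reads on either of 2 platforms, not given per sample. The submitters' processing notes name Trimmomatic, HISAT2, Cufflinks, HTSeq and DESeq2, and the build GRCm39, whereas the paper's methods name mm9. Whether counting used strand or multimapping reads is not given in the sources used here. The authors deposited a table of raw counts per gene (17447 genes) and FPKM per library, in which the 8 genes checked each have the same implied length in all libraries. Counts are the basis of all results, and FPKM served for levels per length.

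Counts were analysed with edgeR 4.0.16 in R 4.3.3: genes were filtered with filterByExpr (minimum count 10, total 15), scaled with TMM and tested by quasi-likelihood in 1 fit over 15 libraries, with Benjamini-Hochberg adjustment over 13021 genes and a threshold of 0.05. The procedure was tested on simulated data. CPM use TMM-scaled library sizes. Totals were 10480788 to 13424078 counts, and 3 counts set the limit for a gene at 0. Correlations are descriptions: the permutation test planned for those of Hbb-bs with lists is not reported, since both were chosen with the data known. Likeness was ranked over genes with a mean of at least 1 CPM. The genes named are the 5 genes, list genes that passed in any comparison, the 3 most abundant of each list as space allowed, and the 10 most like genes. Slc4a1, Rhd, Mmp9, Tent5c, Ppox, Bmp10, Gata1, Klf1, Nfe2, Hemgn, Ahsp, Hbq1a and Hbq1b were picked for naming with their values in view. The same holds for Lyve1, Timd4 and Pdgfra. Some genes that this rule names are not reported here. The 5 genes and all lists were chosen with earlier results of these data known. P-values measure the spread between these libraries, each labelled as a separate sample.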

Additional observations from a re-analysis of the deposited data

How the results depend on the processing

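Over the 4 comparisons, 48 recomputed values of the summed globin difference each moved by less than the spread between replicates. That spread was wide, with an SD of 1.34 on the log2 scale for WTCKD against WTSHAM and 0.739 for WTCKD+RNLS against WTCKD. Group medians moved the first difference from -2.23 to -3.32 and the second from 2.72 to 3.37. The replicate block cannot move the summed difference, since each replicate number occurs in every group. With each library left out it lay between -3.22 and -1.62 for WTCKD against WTSHAM, 2.44 and 3.17 for WTCKD+RNLS against WTCKD, -0.49 and 0.94 for KOCKD+RNLS against KOCKD, and 0.50 and 1.93 for KOCKD against WTCKD. Of 240 values for the 5 genes, 239 stayed within that spread, and Alas2 in WTCKD+RNLS against WTCKD was 1.90 on the log2(FPKM + 1) scale. Counts of blood and heme genes called changed when only the libraries compared were fitted, to 0 for WTCKD against WTSHAM, 3 for WTCKD+RNLS against WTCKD (Lcn2 and Egln3 among them) and 21 for KOCKD+RNLS against KOCKD. DESeq2 called 1 gene in WTCKD+RNLS against WTCKD (Slc4a1) and 1 for the difference between genotypes (Sptb). With a library left out, the counts were 0 to 2, 0 to 1 and 4 to 7 in the same 3 comparisons. The causes were not tested. The labels state no pairing by replicate number, and deviations of libraries with the same number correlated between -0.36 and 0.33. Such correlations cannot show whether these libraries shared handling. With the replicate block the counts were 1, 0, 8, 0 and 0. The correlation of Hbb-bs with late reticulocyte genes was 0.665 relative to group means, 0.657 without the 2 farthest libraries and 0.554 with unscaled totals. That with endothelial markers was -0.779 without the WTSHAM libraries. Depth limits Slc4a1 and Alas2, which had under 10 counts in some libraries.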
